A study of Mus musculus with 2 samples.

Results

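Described here are the cadherin and protocadherin genes of the mouse autosomes that are named by a number. The rule took every autosomal protein-coding gene of the GENCODE M21 annotation whose symbol is Cdh or Pcdh plus a number, with or without 1 final letter, and so left out the clustered protocadherins. It found 33 of 20807 autosomal protein-coding genes. A further 2 genes with such symbols lie on the X chromosome and were left out by the rule. The list is broader than the classical cadherins and non-clustered protocadherins. It also took Cdh13, whose product is held to the membrane by a lipid anchor, Cdh16 and Cdh17 of the 7D kind, Cdh26, and the tip-link genes Cdh23 and Pcdh15, which are grouped here as atypical.

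Cadherins are calcium-dependent adhesion proteins that mostly bind the same kind of cadherin on the neighbouring cell. Inside the cell the classical types hold beta-catenin and p120-catenin, and through alpha-catenin the actin skeleton. In the cortex they sort neurons, place synapses and seal vessels, and the delta protocadherins guide axons and can be taken up again to weaken contacts.

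Accessible DNA was measured by DNase-seq, in which nuclei are briefly treated with the nuclease DNase I and dense cuts mark open DNA. The tissue was frontal cortex of 14-day-old male mice of B6CASTF1/J, an F1 hybrid, and each library was labelled as tissue of 3 males. The single group held 2 libraries, replicate 1 and replicate 2, with separate biosamples and 1 shared donor number. The spread between them may therefore be partly technical. No treatment, other age or other tissue was part of the group, so nothing was compared between conditions and no p-value was computed.

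The authors' longer list of replicate 1 held 75753 peaks (median height 0.848), and that of replicate 2 held 77035 (median height 0.801). A height is the authors' deposited signal value, set per library on an unstated scale, and read depth was not used here. A promoter peak is a peak within 1 kb of any annotated start site of the gene, and its height is that of the tallest such peak. Peaks of both libraries that overlapped by at least 1 bp were joined into shared regions, and those farther than 1 kb from every protein-coding start site are called distal. Footprints are the authors' short stretches of fewer cuts inside open DNA, where a protein may cover the bases. In whole tissue, few cells with a fully open site and many cells with a partly open one cannot be told apart. Coordinates are 1-based in mm10.

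Markers of the cell types in the tissue were present to different degrees. Both libraries showed a promoter peak at 5 of 6 excitatory neuron markers. They did so at 3 of 6 interneuron and 4 of 6 astrocyte markers. Myelin markers had 1 of 5, microglial markers 1 of 6, endothelial markers 2 of 6, and epithelial and choroid plexus markers 0 of 6 each.

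The open DNA of 4 of the 5 tallest member promoters, all protocadherins, is shown first, because the tall peaks of the members lie there. The fourth tallest, Pcdh1, is described without its sequence. Each stretch is the part of the shared promoter region outside annotated exons, read from mm10 in the gene's direction. Capitals mark bases inside footprints that both libraries share. The Pcdh10 stretch is chr3:45378261-45378397 on the plus strand. The Pcdh9 stretch is chr14:93890701-93890980 on the minus strand, the Pcdh17 stretch is chr14:84443341-84443562 on the plus strand, and the Pcdh8 stretch is chr14:79771313-79771440 on the minus strand.
Pcdh10: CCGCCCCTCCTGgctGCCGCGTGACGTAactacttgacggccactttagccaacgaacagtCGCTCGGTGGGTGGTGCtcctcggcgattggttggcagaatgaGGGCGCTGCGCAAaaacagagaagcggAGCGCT
Pcdh9: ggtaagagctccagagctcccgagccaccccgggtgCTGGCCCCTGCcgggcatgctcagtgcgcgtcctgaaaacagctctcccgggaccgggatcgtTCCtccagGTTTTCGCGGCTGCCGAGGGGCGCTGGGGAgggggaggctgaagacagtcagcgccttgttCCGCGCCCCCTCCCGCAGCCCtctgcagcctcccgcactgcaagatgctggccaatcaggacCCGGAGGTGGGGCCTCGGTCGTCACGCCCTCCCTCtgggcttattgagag
Pcdh17: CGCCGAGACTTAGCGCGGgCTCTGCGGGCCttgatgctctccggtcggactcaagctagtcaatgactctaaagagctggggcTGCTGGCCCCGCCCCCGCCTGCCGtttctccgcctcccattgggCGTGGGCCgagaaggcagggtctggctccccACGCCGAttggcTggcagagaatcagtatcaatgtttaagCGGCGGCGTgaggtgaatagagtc
Pcdh8: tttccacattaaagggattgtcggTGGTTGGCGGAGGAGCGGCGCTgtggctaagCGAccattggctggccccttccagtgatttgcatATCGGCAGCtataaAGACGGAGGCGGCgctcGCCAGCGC

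Footprints cover much of these stretches: 61 of 137 bases at Pcdh10, 100 of 280 at Pcdh9, 78 of 222 at Pcdh17 and 55 of 128 at Pcdh8. The Pcdh10 stretch begins with a match to the SP/KLF motif GGGCGG, read on the other strand, inside a shared footprint. The Pcdh17 stretch holds an SP/KLF match and an overlapping match to the EGR motif GCGGGGGCG, both inside a shared footprint. The Pcdh8 stretch holds a match to the POU motif ATGCAAAT, which lies in no shared footprint. A match is a description of the letters and does not show which protein was bound. All letters and matches here are those of mm10, and whether the alleles of the hybrid differ from it at these bases was not examined.

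Of the 33 members, 24 (72.7%) had a promoter peak in both libraries, against 60.8% of all autosomal protein-coding genes. A promoter peak was missing in both libraries at 8 members (24.2%), against 35% of all genes. These were Cdh1, Cdh5, Cdh15, Cdh16, Cdh17, Cdh19, Cdh26 and Pcdh12. Cdh3 had a peak in replicate 1 only, at a height of 0.406. The median height of their promoter peaks was 1.51 in replicate 1 and 1.51 in replicate 2, against 3.09 and 3.03 over all genes where both libraries had one. Among genes of at least 100 kb, members had medians of 1.41 and 1.29 against 2.04 and 1.98 for all. Among shorter genes, the 7 members with a peak had medians of 2.97 and 3.54 against 3.31 and 3.29 for all.

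**Figure D1:**
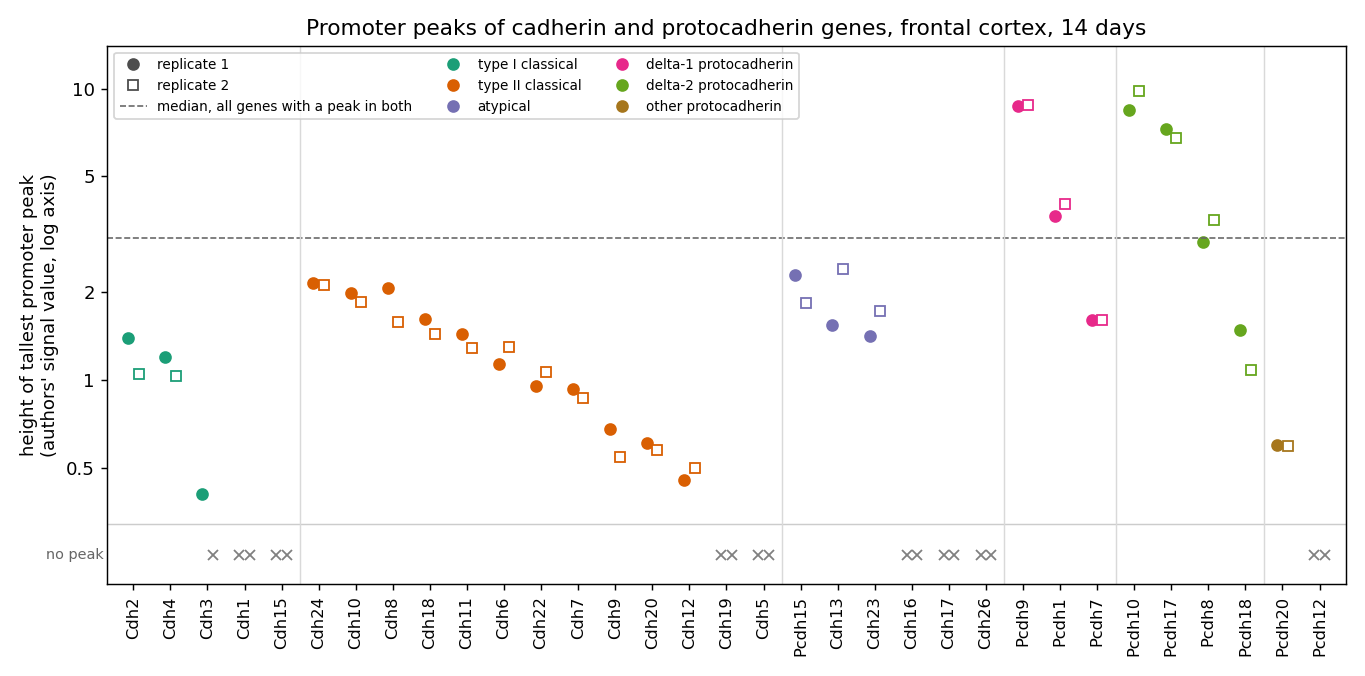
Height of the tallest promoter peak (authors' signal value, log axis) of each of the 33 members, grouped by role, in replicate 1 (filled circles) and replicate 2 (open squares). Crosses mark libraries without a promoter peak, and the dashed line is the mean of both libraries' medians over all genes with a peak in both. Pcdh9, Pcdh10, Pcdh17 and Pcdh1 lie above the line in both libraries, Pcdh8 lies on either side of it, and every other member lies below it or has no peak.

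The protocadherins held the tallest peaks. Both libraries had a promoter peak at 9 of the 10 Pcdh symbols, with medians of 2.97 and 3.54, and at 15 of the 23 Cdh symbols, with medians of 1.40 and 1.28. Among the delta-2 protocadherins, several of which bind the WAVE actin regulator through their tails, all 4 had a peak in both libraries. Pcdh10, which guides striatal and cortical axons, had the tallest promoter peak of all members, at 8.45 and 9.78 (mean 9.12 ± 0.939, SD, n = 2). This is the 89.4th and 92.8th percentile among genes with a promoter peak in replicates 1 and 2. Pcdh17 stood at 7.25 and 6.76 (7.002 ± 0.349, SD, n = 2), and Pcdh8, known as arcadlin and induced by neuronal activity, at 2.97 and 3.54 (3.26 ± 0.404, SD, n = 2). Pcdh18 was the lowest delta-2 gene, at 1.48 and 1.08 (1.28 ± 0.280, SD, n = 2).

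All 3 delta-1 protocadherins had one in both libraries. Pcdh9 stood at 8.73 and 8.75 (8.74 ± 0.0138, SD, n = 2), the 90.3rd and 90.4th percentile. Pcdh10 and Pcdh9 do not differ beyond the gap between libraries, since Pcdh9 was the taller one in replicate 1 and Pcdh10 in replicate 2. Pcdh1 stood at 3.64 and 4.03 (3.84 ± 0.273, SD, n = 2), with its tallest peak 728 bp from the nearest start site in replicate 1 and 708 bp in replicate 2. Pcdh7 stood at 1.60 in both libraries and was instead broad, with 9 listed peaks in its promoter window in replicate 1 and 11 in replicate 2, the most of any member. Some of these listed peaks lie inside others, so they are not all separate open sites. The window of Pcdh7 also joins those of 7 start sites. Of the remaining protocadherins, Pcdh20 was low at 0.597 and 0.592 (0.595 ± 0.00349, SD, n = 2), and Pcdh12, a protocadherin of endothelium, had no promoter peak.

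Promoter peaks in both libraries were found at 2 of the 5 type I classical cadherins. Cdh2, the N-cadherin of neurons and their progenitors, stood at 1.40 in replicate 1 and 1.05 in replicate 2, but the tallest peaks lay at different sites. In replicate 1 a peak at the start of a retained-intron transcript was highest, with the peak at the protein-coding start next at 1.37, and in replicate 2 the protein-coding start was highest. Cdh4, the R-cadherin of retina and brain, stood at 1.19 and 1.03 (1.11 ± 0.113, SD, n = 2). Cdh1, Cdh3 and Cdh15, the E-, P- and M-cadherins of epithelium and muscle, had no promoter peak in both libraries.

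They were found at 11 of the 13 type II classical cadherins, none above 2.15. The tallest was Cdh24 at 2.15 and 2.11 (2.13 ± 0.0279, SD, n = 2), where a start site of the gene Gm17606 also lies within 1 kb of the peak. Cdh10 followed at 1.99 and 1.85 (1.92 ± 0.101, SD, n = 2), and Cdh8, known from thalamocortical and frontal circuits, at 2.07 and 1.58 (1.82 ± 0.346, SD, n = 2). Cdh10 and Cdh8 are not ordered beyond the gap between libraries, since they changed places between them. Cdh18, Cdh11, Cdh6, Cdh22 and Cdh7 followed, with heights from 1.62 down to 0.931 in replicate 1 and from 1.44 to 0.867 in replicate 2. Cdh9, known from mossy fibre synapses, was low at 0.681 and 0.542 (0.611 ± 0.0980, SD, n = 2).

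Cdh20 and Cdh12 were also low, and their tallest peaks lay at different sites in the libraries. Cdh20 stood at 0.609 and 0.575, below Cdh9 in replicate 1 and above it in replicate 2, and Cdh12 at 0.454 and 0.50, the lowest member with a peak in both. Cdh12 lay at the 2.00th and 3.43rd percentile of genes with a promoter peak. The type II genes without any promoter peak were Cdh5, the VE-cadherin that seals endothelium, and Cdh19, a cadherin of the glia of peripheral nerves.

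Among the 6 atypical members, 3 had promoter peaks in both libraries. Pcdh15 stood at 2.29 and 1.84 (2.07 ± 0.318, SD, n = 2), Cdh13, the T-cadherin that also binds adiponectin, at 1.54 and 2.39 (1.97 ± 0.603, SD, n = 2), and Cdh23 at 1.41 and 1.72 (1.56 ± 0.218, SD, n = 2). Cdh13 had the widest gap between libraries of these. The kidney and gut cadherins Cdh16 and Cdh17, and Cdh26, had none.

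The start sites behind some of these heights were not those of protein-coding transcripts. At Cdh23 the tallest peak lay near a retained-intron transcript 391027 bp from the outermost start in replicate 1, and next to protein-coding starts there was a peak only in replicate 2, at 0.776. At Pcdh15 the tallest peak lay 982 bp from the start of a retained-intron transcript, and the peaks at protein-coding starts stood at 0.514 and 0.542. At Cdh12 the peaks of replicate 1 lay by a processed transcript, and only replicate 2 had peaks at protein-coding starts, up to 0.384. At Cdh18 the tallest peak sat on a protein-coding start 487389 bp into the gene, and no peak lay at the outermost start. With start sites of protein-coding transcripts only, an alternative chosen after seeing the data, 22 of 33 members kept peaks in both libraries. The share of all genes under this alternative was not computed.

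The 8 members without a promoter peak also had no listed base in the cut rate track, which gives the authors' false discovery rate per base below 0.05. None of the 8 windows in replicate 1 or the 9 in replicate 2 held such a base, against 2.55% and 2.72% of all genes without a promoter peak. At the members with a peak in both libraries, the listed bases in the windows ran from 210 bp at Pcdh20 to 3382 bp at Pcdh7 in replicate 1. Pcdh7 also had the most in replicate 2, at 4599 bp.

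Gene length and CpG content moved with the presence of a peak. All 17 members of at least 100 kb had a promoter peak in both libraries, against 84.4% of all genes of that length, and 7 of the 16 shorter members (43.8%) did, against 57.8% of all shorter genes. Of the members with a ratio of observed to expected CpG of at least 0.6 around the outermost start, 14 of 16 (87.5%) had one, against 92.5% of all such genes. Of those with a lower ratio, 10 of 17 (58.8%) had one, against 43.7% of all such genes. The CpG-rich members without a peak in both libraries were Cdh1, with a ratio of 0.621, and Cdh3, with 0.606.

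The upstream stretches of these 2 genes are shown because they are CpG-rich while no open DNA was shared by the libraries there. Each is the 200 bp before the outermost start site in mm10, chr8:106603151-106603350 for Cdh1 and chr8:106510691-106510890 for Cdh3, both on the plus strand. Capitals mark matches to CAGGTG on either strand, the E-box known to be bound by the repressors ZEB and SNAI.
Cdh1: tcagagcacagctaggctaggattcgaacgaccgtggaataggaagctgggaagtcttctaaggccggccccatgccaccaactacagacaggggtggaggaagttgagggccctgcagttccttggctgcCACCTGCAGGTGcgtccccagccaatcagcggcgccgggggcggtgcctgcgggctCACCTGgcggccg
Cdh3: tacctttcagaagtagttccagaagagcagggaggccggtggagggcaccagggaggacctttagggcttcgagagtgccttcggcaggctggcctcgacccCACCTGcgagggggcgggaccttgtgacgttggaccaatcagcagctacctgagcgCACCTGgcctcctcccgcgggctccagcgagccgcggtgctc

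The Cdh1 stretch holds 3 such matches and 12 CpG dinucleotides, and the Cdh3 stretch 2 matches and 13 CpG dinucleotides. The weak peak of Cdh3 in replicate 1 lay over its stretch, at chr8:106510737-106510874. In the 300 bp around the outermost start, 4 of 33 members (12.1%) held this E-box, namely Cdh1, Cdh3, Cdh4 and Pcdh15, against 20.7% of all genes. Cdh4 and Pcdh15 held it and had promoter peaks. Epithelial markers had no promoter peak in both libraries in 6 of 6 cases, as given above, and their part in the state of Cdh1 and Cdh3 was not tested.

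Both strands of the same 300 bp windows were searched for 18 motifs. The SP/KLF motif GGGCGG was the most common among members, in 14 of 33 (42.4%) against 43.7% of all genes. It was found at Cdh1, Cdh2, Cdh3, Cdh4, Cdh5, Cdh6, Cdh8, Cdh22, Cdh24, Pcdh1, Pcdh10, Pcdh15, Pcdh17 and Pcdh18. The ETS motif CCGGAAG was found in 0 members against 11.0% of genes, and the EGR motif in 3 (Cdh2, Cdh24 and Pcdh17), or 9.09%, against 3.67%. In the middle 200 bp of the 54 shared promoter regions of members, SP/KLF matches were found in 15 (27.8%), against 49.7% of all promoter regions. Those 54 regions were also lower than the rest, with medians of 0.902 and 1.01 against 1.77 and 1.78.

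Footprints were counted only inside promoter peaks, so a gene without a peak could have none. A footprint in a promoter peak in both libraries was found at 23 members (69.7%), against 58.2% of all genes. This gap repeats the one in promoter peaks. Of the 24 members with a peak in both libraries 23 had such a footprint, against 12118 of 12657 genes with one. Cdh12 was the one member with a peak in both libraries that lacked it. Pcdh7 had the most, 19 in replicate 1 and 27 in replicate 2, of which 8 of the first overlapped one of the second. Pcdh17 had 19 and 16, with 10 shared, Cdh2 had 10 and 22, with 4 shared, and Pcdh10 had 9 and 16, with 7 shared. At Pcdh9 5 of 7 footprints of replicate 1 were shared and at Pcdh8 6 of 7. At Cdh4 2 of 9 were shared, and at Cdh9, Cdh20 and Pcdh20 none. Over all promoter regions of members, 50% of the footprints of replicate 1 were shared, against 68.3% over all promoter regions, whose peaks were taller.

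**Figure D2:**
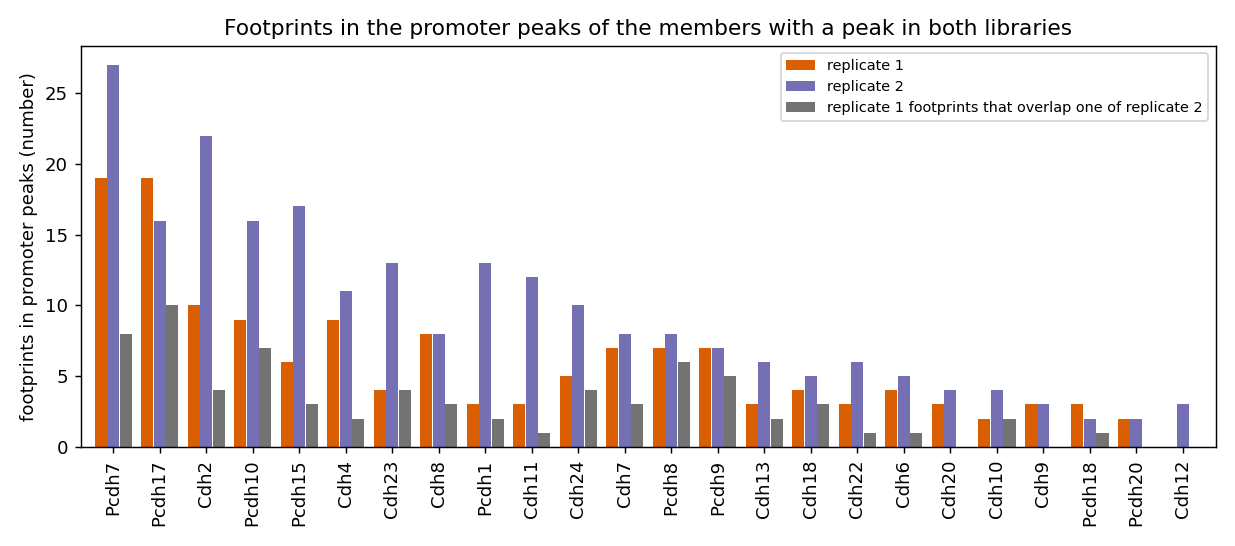
Number of footprints in the promoter peaks of the 24 members with a peak in both libraries, in replicate 1 (orange), replicate 2 (purple), and the replicate 1 footprints that overlap one of replicate 2 (grey). Pcdh7 has 19 and 27 footprints with 8 shared, Pcdh17 has 10 shared of 19, and Cdh12 has none in replicate 1.

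Distal regions were common at these genes. At least 1 shared distal region lay in the gene span plus 10 kb at 28 of 33 members (84.8%), against 47.4% of all genes. Members were long, with a median of 123 kb against 17.6 kb. Per 10 kb the median was 0.115 for members against 0 for all genes. Among genes of at least 100 kb it was lower for members, 0.0929 against 0.147 for all. Among shorter genes it was higher for members, 0.293 against 0 for all. At least 1 such region lay at 17 of 17 long members, against 2106 of 2372 long genes. Of the shorter members 11 of 16 had one, against 7755 of 18435 shorter genes. Length was not matched within these groups. The median was 392 kb for long members against 169 kb for all long genes, and 34.5 kb for shorter members against 14.3 kb for all shorter genes. The members held 115 different shared distal regions, of which 89 lay in introns, 5 on exons, 14 upstream and 7 downstream. A footprint shared by both libraries lay in 56 of them (48.7%), against 57.9% of all distal regions. Their median heights were 0.788 and 0.701, against 0.931 and 0.851 over all distal regions.

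Cdh13 had the most, 22 regions over its 1041 kb, more than 99.9% of all genes. That rank is not adjusted for gene length. Per 10 kb Cdh13 stood at 0.207, against a median of 0.147 for all genes of at least 100 kb. Cdh4 had 11, Pcdh9 had 10, Pcdh15 had 9, Cdh23 had 8, Cdh22 had 6 and Pcdh7 had 5, and Pcdh1 and Pcdh17 had 4 each. Length alone does not order them: Cdh12 at 1140 kb and Cdh18 at 925 kb had 2 each. The densest were short genes, Pcdh1 at 0.867 and Pcdh8 at 0.815 regions per 10 kb, followed by Cdh16 at 0.471 and Cdh3 at 0.452. Cdh15, Cdh19, Cdh24, Cdh26 and Pcdh18 had none.

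**Figure D3:**
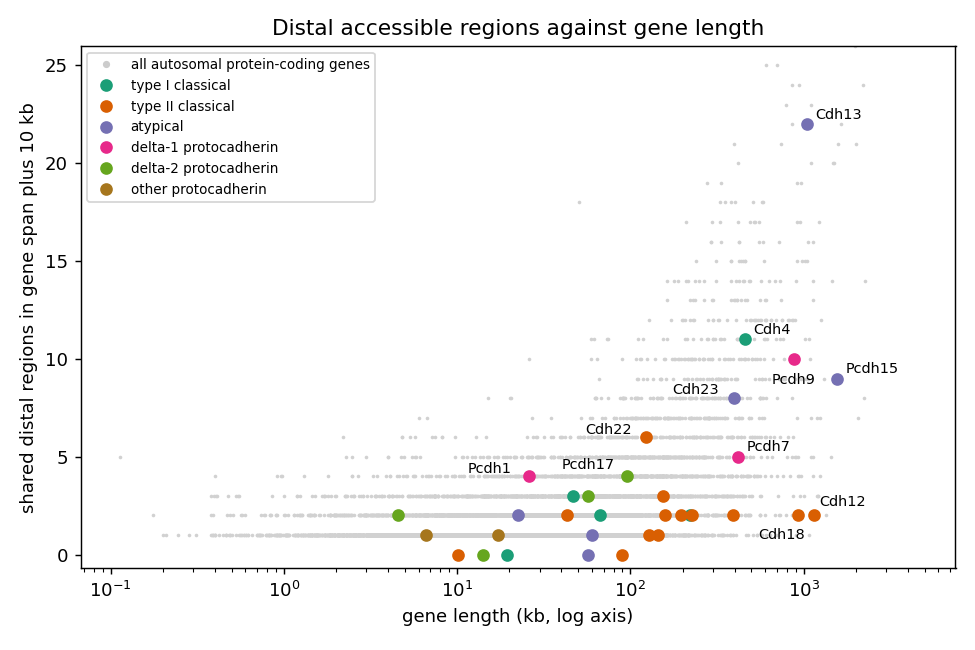
Number of shared distal regions in the gene span plus 10 kb against gene length (kb, log axis). Grey points are autosomal protein-coding genes with at least 1 such region, although the key names all genes. The 33 members are coloured by role and are drawn also where they have none. Cdh13 has 22, Cdh12 and Cdh18 have 2 each at a similar length, and 8 other genes lie above the axis, which ends at 26.

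The regions of Cdh13 were spread over nearly the whole gene, from -8822 bp to 1020643 bp, counted from the outermost start. Its 3 tallest in the mean of both libraries were 566848 bp into the gene, at 1.12 and 1.71, 737348 bp into it, at 1.36 and 1.41, and 912948 bp into it, at 1.72 and 1.00. They are not ordered beyond the gap between libraries, since the last was the tallest in replicate 1 and the first in replicate 2. In Cdh4 the tallest pair lay 357630 bp and 382610 bp after the start, at 3.03 and 1.67 and at 1.64 and 1.79. The Pcdh9 regions were low except for 1 intronic region 675648 bp after the start, at 2.14 and 2.83 (2.48 ± 0.488, SD, n = 2). In Pcdh15, 3 of 9 lay within 4302 bp of the start, and the farthest lay 1303939 bp after it, at 0.896 and 0.509.

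**Figure D4:**
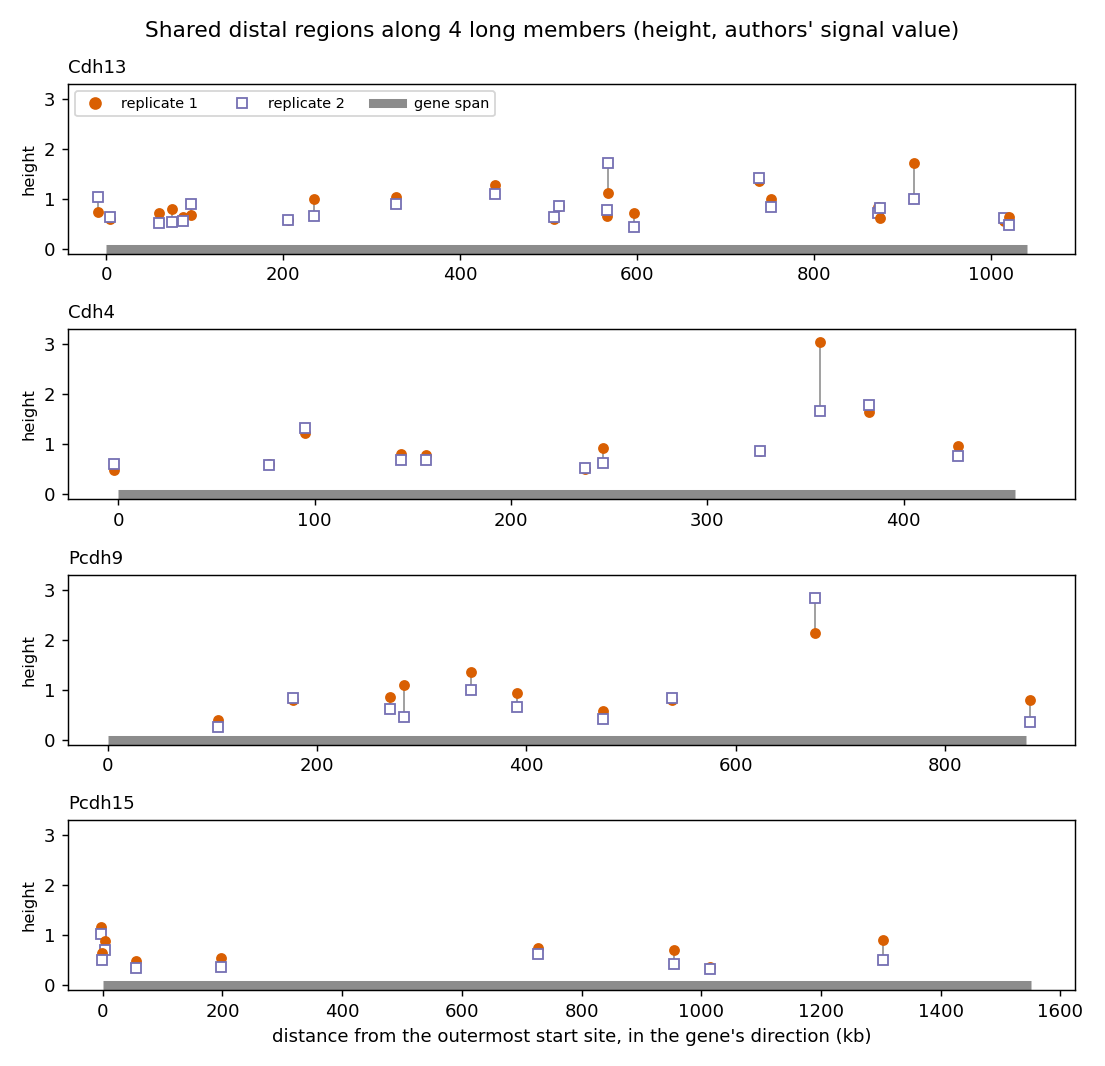
Height of each shared distal region (authors' signal value) against its distance in kb from the outermost start site, in the direction of the gene, for Cdh13, Cdh4, Pcdh9 and Pcdh15. Circles are replicate 1, squares replicate 2, and the grey bar is the gene span. Cdh13 has 22 regions along its length, and Cdh4 and Pcdh9 each have a region above 2 in at least 1 library.

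Distal regions taller than 1.5 in both libraries numbered 11, and the highest belonged to Cdh10 and lay 2604 bp after its outermost start, in an intron. Another protein-coding start of Cdh10 lies nearer to this region, 212 bp from a low replicate 2 promoter peak at chr15:18820541-18820640. The region stood at 3.86 and 4.17 (4.01 ± 0.221, SD, n = 2), above the promoter peak of the same gene at 1.99 and 1.85. A region upstream of Pcdh7, at -2076 bp from its start, stood at 3.20 and 2.74 (2.97 ± 0.329, SD, n = 2), again above the promoter peak of that gene at 1.60. A region upstream of Pcdh10, at -2447 bp, stood at 2.50 and 2.84 (2.67 ± 0.246, SD, n = 2). An intronic region of Cdh4 stood at 3.03 and 1.67, a region downstream of Pcdh1 at 2.50 and 1.83, and a region in Cdh16 at 2.08 and 2.21, where the gene Pdp2 is also in reach.

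Cdh5 had no promoter peak but an intronic region 25756 bp after its start, at 2.58 and 2.19 (2.39 ± 0.273, SD, n = 2). A region downstream of Cdh5, 44866 bp after its start, stood at 1.42 and 1.55 (1.49 ± 0.0921, SD, n = 2). Of the endothelial markers Flt1, at 0.382 and 0.542, and Kdr, at 0.609 and 0.484, were the 2 with peaks in both libraries. Tie1 and Tek had none, and Pecam1 and Cldn5 had one in 1 library each. The part of endothelial cells in the Cdh5 regions was not tested.

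The distal stretches shown here are the ones on which this description turns: the tallest region of any member, the open intron of Cdh5, and 2 of the 3 regions with a match to the CTCF motif inside a shared footprint. The third, upstream of Pcdh12 at 0.943 and 0.726, is named only. Capitals again mark shared footprints. The Cdh10 stretch is chr15:18821441-18821660 and the Cdh5 intron stretch chr8:104127241-104127520, both on the plus strand. The Cdh11 intron stretch is chr8:102781043-102781200 on the minus strand, and the stretch downstream of Cdh5 is chr8:104146381-104146600 on the plus strand.
Cdh10 intron: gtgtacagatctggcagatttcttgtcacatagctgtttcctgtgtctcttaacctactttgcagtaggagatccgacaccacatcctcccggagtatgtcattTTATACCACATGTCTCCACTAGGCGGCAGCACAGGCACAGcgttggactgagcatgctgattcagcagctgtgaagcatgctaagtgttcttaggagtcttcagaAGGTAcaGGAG
Cdh5 intron: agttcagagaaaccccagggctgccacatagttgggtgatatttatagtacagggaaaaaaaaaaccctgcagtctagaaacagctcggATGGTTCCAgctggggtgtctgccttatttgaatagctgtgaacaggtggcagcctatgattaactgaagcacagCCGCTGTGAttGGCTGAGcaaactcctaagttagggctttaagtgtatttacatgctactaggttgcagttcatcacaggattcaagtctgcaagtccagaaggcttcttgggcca
Cdh11 intron: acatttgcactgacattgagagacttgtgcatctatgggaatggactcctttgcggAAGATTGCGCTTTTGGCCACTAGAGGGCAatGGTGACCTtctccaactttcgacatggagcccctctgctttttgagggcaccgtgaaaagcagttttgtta
Cdh5 downstream: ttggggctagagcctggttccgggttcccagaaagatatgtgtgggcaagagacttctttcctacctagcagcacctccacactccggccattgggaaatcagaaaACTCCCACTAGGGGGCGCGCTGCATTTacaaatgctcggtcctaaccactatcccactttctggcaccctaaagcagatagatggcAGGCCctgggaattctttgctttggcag

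The Cdh10 stretch holds 3 shared footprints over 49 bases, with matches to the AP-1 motif TGANTCA and the E-box CAGCTG outside them. It held no match to the CTCF motif as searched, and near matches were not counted. The Cdh11 stretch lies in a region at 1.77 and 1.48 (1.63 ± 0.20, SD, n = 2), and its CTCF match lies at chr8:102781117-102781128. The CTCF match downstream of Cdh5 lies at chr8:104146491-104146502. CTCF, an architectural protein at the ends of chromatin loops, had matches in the middle 200 bp of 5 of the 115 member regions (4.35%), at Cdh3, Cdh5, Cdh10, Cdh11 and Pcdh12, against 8.23% of all distal regions. The Cdh10 match lay in a region other than the printed one, at 0.860 and 0.517. The motif of the neuronal gene repressor REST was found in 1 member region, on an exon of Pcdh8 at 1.02 and 1.00, and in 7 of all 33863 distal regions. The most common motifs of member distal regions were NFI (TTGGCA) in 32 (27.8%) against 20.6% of all, and bHLH (CAGATG) in 31 (27.0%) against 24.6%.

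Regions beyond 10 kb were also assigned to the nearest protein-coding start site. The distance to neighbouring genes was not measured, so these counts are not adjusted for it. Members were nearest for 243 distal regions, a median of 6 per gene against 0 over all genes, and 138 of these lay beyond 10 kb of the gene span. Cdh13 was nearest for 31, Cdh11 for 20, Cdh4 for 19, Cdh5 for 18, Cdh8 for 17, Cdh26 for 14 and Pcdh9 for 13. At Cdh26 all 14 lay beyond 10 kb of a gene with no region and no promoter peak of its own, and at Cdh11 17 of 20 did. Nearness is no sign that a region acts on the gene.

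The listed partners of cadherins inside the cell had higher median heights than the members. Promoter peaks in both libraries were found at 20 of 21 partner genes (95.2%), against 60.8% of all genes. Their medians were 4.50 and 4.37, against 3.09 and 3.03 over all genes with a peak in both. The exception, Cyfip2, had a peak in replicate 2 at 1.32. The catenins and their neighbours had peaks in 11 of 11. Jup, the plakoglobin of desmosomes, was the tallest at 13.6 and 14.8 (14.2 ± 0.841, SD, n = 2). Taok2, a kinase that acts with N-cadherin and Pcdh8, stood at 9.66 and 10.3 (9.96 ± 0.428, SD, n = 2). The lowest were Ctnna1, an alpha-catenin, at 1.56 and 1.13, where Lrrtm2 also has a start, and Afdn at 1.41 and 1.03, where Tcte2 does.

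In the listed rest of the cadherin superfamily, 10 of 17 genes (58.8%) had promoter peaks in both libraries, close to the 60.8% of all genes. Their medians were 1.66 and 1.36, against 3.09 and 3.03 over all genes with a peak in both. The tallest were the calsyntenin Clstn3 at 4.14 and 4.78 (4.46 ± 0.449, SD, n = 2) and the planar polarity gene Celsr3 at 3.56 and 4.2 (3.88 ± 0.45, SD, n = 2). The lowest was Dchs2 at 0.549 and 0.509, at different sites. Next in the mean came Clstn2 at 1.18 and 1.11, and it changed places between libraries with Clstn1 at 1.11 and 1.25. Fat2, Dchs1, Celsr1, Cdhr2, Cdhr4 and Cdhr5 had none, and Cdhr1 had a peak in replicate 2 only, at 0.50.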

How the data were processed

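The data were peak lists, footprints and cut rate tracks of 2 DNase-seq libraries of 1 group, all in mm10 per the labels. The authors' deposited signal value of each peak was used as its height, and lists were made per library and not pooled, per the deposited file descriptions. The deposited footprints carry a constant p-value or q-value kind of entry of 0.01, and in the deposited cut rate track each listed base has a false discovery rate, a kind of q-value, below 0.05. For the aligner and callers, names and versions are not given in the sources used here. Read totals were not used, so no counting interval was computed. Each height is precise only to the gap between libraries, and means join 2 scales set per library.

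Peaks were joined with Python 3.11.15 and numpy 2.4.6. Promoters were 1000 bp either side of every annotated GENCODE M21 start site, and overlaps needed 1 bp. Distal regions were counted over the span plus 10 kb, per 10 kb. The interval functions were tested on simulated peaks. Sequences come from GRCm38.p6, the assembly of mm10, with annotated exons left out and none printed from 1 chromosome. There was no contrast, so no test was run. The alternatives were the window, the start sites, the shorter peak list, the overlaps, the flanks and leaving out a library. Members, gene lists and motifs were chosen with earlier results of these data known. Named with values were the tallest and lowest promoters, those with most or densest distal regions, the tallest distal regions, those with most footprints, and the ends of each partner list. Genes given with values outside these were named after their values were seen.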

Additional observations from a re-analysis of the deposited data

How the results depend on the processing

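No paired analysis was possible because both libraries belong to 1 group. Of 46 alternative values for the 8 counts and medians, 35 stayed within the limit (1.5 times for a count, 1 SD between libraries for a median) and 11 did not. The number of members with a promoter peak in both libraries ranged from 20 to 25 over all alternatives. The share of all genes was not computed for the alternatives, so whether the gap to all genes holds under them was not tested. The median promoter height, 1.51, moved to 1.36 with a window of 500 bp, to 1.47 with the outermost start only, to 1.64 with the shorter peak list and to 1.44 with protein-coding starts, and ranged from 1.48 to 1.51 with 1 library left out. Its limit was narrow because both libraries had nearly the same median. The 115 distal regions fell to 44 with the shorter peak list, and the median per 10 kb fell from 0.115 to 0.0191. With 1 library left out, 179 and 192 regions were counted, and the medians per 10 kb were 0.251 without replicate 1 and 0.208 without replicate 2, since a region then no longer had to be shared. With the shorter peak list Cdh12, Cdh20, Cdh22 and Pcdh20 lost their promoter peak in both libraries. With 500 bp Pcdh1 did, with the outermost start Cdh18 and Cdh23, and with protein-coding starts Cdh12 and Cdh23. Read depth was not used here, and how far low heights such as those of Cdh3 and Cdh12 depend on it was not tested.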

Other observations

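The 2 genes with such symbols on the X chromosome, which the rule left out, resembled the lower protocadherins. Pcdh11x had promoter heights of 1.00 and 0.926 (0.964 ± 0.0547, SD, n = 2) and Pcdh19 heights of 1.15 and 1.38 (1.26 ± 0.162, SD, n = 2), with 2 shared distal regions each. Males carry 1 X chromosome, and its part in these heights was not tested.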
